A study of Homo sapiens with 2 samples.

Results

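The genes described here are 36 autosomal genes of germ cells, meiosis and the piRNA pathway. They were taken by name, for their function, from the 35812 gene symbols of an H3K9me3 map of KBM7 cells. No cut on a measured value was used, but earlier results of these data were known when the list was chosen. Every name was found, each with 1 gene interval. The map was made by chromatin immunoprecipitation and sequencing (ChIP-seq), in which chromatin is crosslinked, sheared and pulled down with an antibody, and the recovered DNA is sequenced. KBM7 is an established human cell line of near-haploid karyotype, derived from chronic myeloid leukemia, and no treatment or engineered allele is named for it. The series holds 1 library made with the H3K9me3 antibody ab8898 of Abcam and 1 library made with IgG, whose values were not analysed here. Every value below is thus a description of 1 library, with no replicate, no control beside it and no test. RNA was not measured in the data used here, so whether any of these genes is transcribed in KBM7 cells is not known from them.

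Trimethylation of lysine 9 of histone H3 (H3K9me3) is a mark of silenced chromatin that is bound by HP1 proteins and is laid down over repeats, zinc finger gene clusters and some silenced genes. Genes that serve meiosis and the germ line are kept silent in most somatic tissues, among other ways by promoter DNA methylation and by repressor complexes with E2F6 or with MGA and MAX that bind at their starts. Meiosis pairs the parental chromosomes along the synaptonemal complex and joins them by recombination, and the piRNA pathway uses PIWI proteins and small RNAs to silence transposons in germ cells.

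The files gave the reads in 40237 gene intervals and the positions of 126965 peaks, on the hg19 build. The reads in all intervals sum to 78512210, a sum that counts reads of overlapping intervals more than once, and no total depth is stated. The gene score is the number of reads per kb of gene interval. Its median was 43.5 over the 35775 nuclear symbols and 34.3 over the 18632 symbols matched to protein-coding genes, with 14 and 87.8 at the 10th and 90th percentiles of the latter. Intervals given in brackets after a score are exact Poisson intervals at 95% and cover counting error only.

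As a list, the 36 genes scored above the typical protein-coding gene of this library. Their median score was 52.3 reads per kb, which is 1.52 times the protein-coding median and 1.2 times the median of all symbols. The middle range, from the 25th to the 75th percentile, ran from 39.1 to 64.9 (19.9 to 57.2 over protein-coding symbols). Of the 36, 32 lay above the protein-coding median and 24 above the median of all symbols, a level that 37.5% of protein-coding symbols exceeded. Only 4 of them, TEX101, PIWIL2, TEX15 and SYCE1, lay above the 90th percentile of protein-coding symbols, which 10% exceed by construction. Scores ran from 16.1 at GTSF1 to 130 at TEX101, 8.06 times as high. Between 266 and 13184 reads lay behind each score, with a median of 2795.

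**Figure D1:**
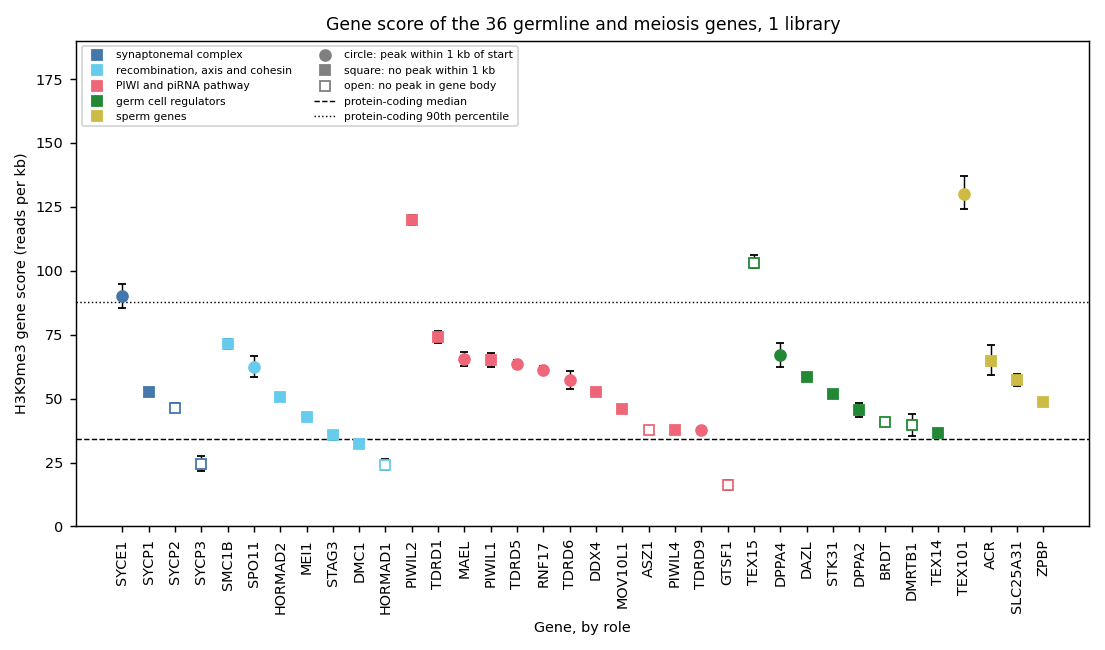
Gene score of each of the 36 genes (vertical axis, reads per kb), grouped by role along the horizontal axis, with exact Poisson intervals at 95%. TEX101 at 130 stands highest and GTSF1 at 16.1 lowest, and 32 of 36 genes lie above the dashed protein-coding median of 34.3.

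Peaks were found in more of these gene bodies than among protein-coding genes as a whole. A peak overlapped the body by at least 1 bp in 28 of 36 genes (77.8%), against 43.7% of protein-coding symbols and 36.8% of all nuclear symbols. The members are long genes, with a median length of 62 kb against 27 kb, and long genes hold peaks more often. Among those under 25 kb, 7 of 11 held a peak against 21.9% of protein-coding symbols of that length. Between 25 and 75 kb, 8 of 12 did against 46.6%. At 75 kb or more all 13 did against 84.1%, so the difference in share was smallest among the long genes. The gap in median score narrowed in the same order, with 57.2 against 28 under 25 kb, 51.9 against 32 between 25 and 75 kb, and 52 against 42.1 at 75 kb or more.

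The peaks were small and took up little of most bodies. The 127 peaks in the bodies had a median width of 750 bp, against 900 bp over all peaks. On average 8.06% of the body lay in peaks (median 3.77%), close to the 7.29% over protein-coding symbols, whose median was 0. With only genes that held a peak on each side, the median cover was 6.41% for the germline genes and 6.86% for protein-coding symbols. Cover reached 10% or more of the body in 9 of the 36 (17.4% of protein-coding symbols). TEX101 alone had most of its body in peaks, and without it the mean cover was 6.1%.

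**Figure D2:**
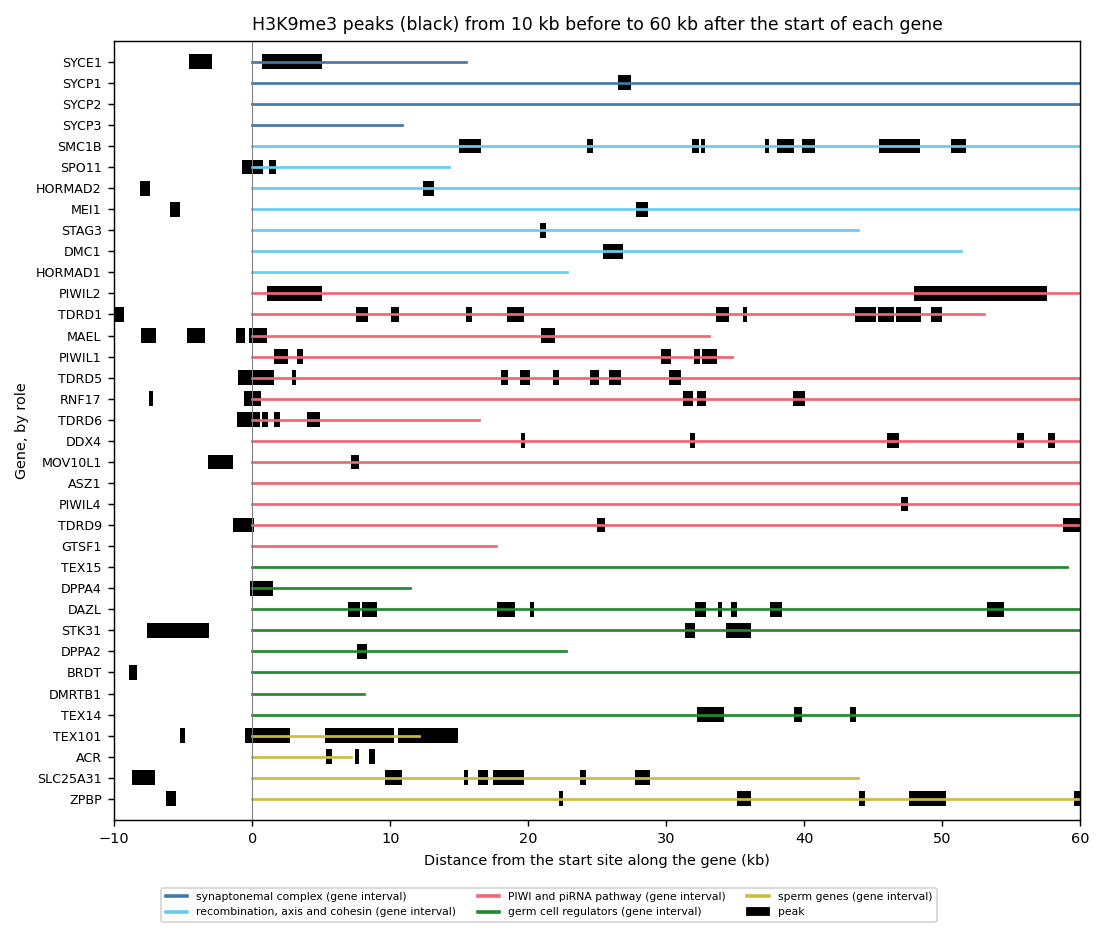
Position of H3K9me3 peaks (black boxes) along each of the 36 genes, in kb from the start site in the direction of the gene, from 10 kb before to 60 kb after it. Coloured lines are gene intervals by role, and the boxes that touch the line at 0 mark the 8 genes whose start site lies in a peak, among them SPO11, DPPA4 and TEX101.

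Synaptonemal complex genes spanned a wide range, with a median score of 49.5 over the 4. SYCE1, a component of the central element, scored 90 (85.4 to 94.9), and 28.1% of its 15.473 kb body at chr10:135367404-135382876 lay in a single peak of 4350 bp. That interval also holds parts of CYP2E1 and SPRN, which share its reads. SYCP1, which forms the transverse filaments that bridge the paired chromosomes, scored 52.5 (51.3 to 53.7) and held 7 peaks covering 6.08% of its body. SYCP2 and SYCP3, which build the lateral elements, held no peak in the body. SYCP2 scored 46.5 (45 to 48.2) with its nearest peak 81591 bp from the start. SYCP3 scored 24.6 (21.7 to 27.7) on 266 reads, the fewest of any member, and its interval overlaps CHPT1. Of the 4 genes 2 thus held a peak, a share close to the 43.7% of protein-coding symbols.

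Genes of meiotic recombination, the chromosome axis and meiotic cohesin had the lowest median of the role groups, 42.9 over 7 genes. Of them 6 held a peak, against 43.7% of protein-coding symbols. Their median length was 51.3 kb, and 46.6% of protein-coding symbols between 25 and 75 kb held one. SMC1B, the meiotic form of a cohesin core subunit, was the highest at 71.3 (69.4 to 73.3), with 9 peaks over 13.4% of its body. All 9 began at least 14950 bp into the gene, and its nearest peak on the other side lay 10101 bp upstream. SPO11, the enzyme that makes the DNA breaks that start recombination, scored 62.4 (58.3 to 66.6), with a peak over its start. HORMAD2, an axis protein, scored 50.7 (49.5 to 51.9), and MEI1, which is needed for break formation, 42.9 (41.6 to 44.2). STAG3, the meiotic STAG subunit of cohesin, scored 35.7 (34 to 37.5), and DMC1, the meiotic recombinase, 32.2 (30.6 to 33.8), each with 1 peak. The intervals of HORMAD2 and STAG3 overlap MTMR3 and PVRIG and share reads with them. HORMAD1, another axis protein, was the only one of these without a peak, at 24.2 (22.2 to 26.3), and its nearest peak lay 131187 bp from its start.

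The PIWI and piRNA pathway was the largest role group, with 13 genes and a median score of 57.2. Of these, 11 (84.6%) held a peak in the body, against 43.7% of protein-coding symbols. The group's median length was 71.8 kb. Among protein-coding symbols, 46.6% of those between 25 and 75 kb and 84.1% of longer ones held a peak. PIWIL2, a PIWI protein of early male germ cells, scored 120 (118 to 122), and PIWIL1, which binds piRNAs of meiotic and later cells, 65.1 (62.4 to 67.8). PIWIL4, a PIWI protein that acts in the nucleus of male germ cells, scored 37.7 (36.3 to 39.1), with 2 peaks over 2.13% of its body, in an interval that overlaps FUT4. Tudor domain proteins, which dock PIWI proteins in germ granules, lay mostly above the list's median. TDRD1 scored 74 (71.7 to 76.3) with 11 peaks over 18.1% of its body, TDRD5 63.7 (62.1 to 65.3) and TDRD6 57.2 (53.6 to 60.9). TDRD6 overlaps PLA2G7 and shares reads with it. RNF17, a Tudor and RING finger protein of male germ cells, scored 61.1 (59.7 to 62.6), and TDRD9, a Tudor protein with a helicase domain, 37.6 (36.6 to 38.7).

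Other factors of the pathway ran from 65.5 down to the lowest score of the list. MAEL, which acts in transposon silencing, scored 65.5 (62.8 to 68.3). The RNA helicases DDX4, also known as VASA, and MOV10L1, which acts on piRNA precursors, scored 52.6 (51 to 54.2) and 46.1 (44.5 to 47.7). The interval of DDX4 overlaps SLC38A9. ASZ1, a germ granule protein, scored 37.8 (36.3 to 39.3) and had no peak in its body. GTSF1, a zinc finger protein that works with PIWI proteins, had the lowest score of all members, 16.1 (14.3 to 18.1) on 285 reads, with its nearest peak 133715 bp away. H3K9me3 over this pathway was uneven, from a Tudor gene with 11 peaks to 2 genes with none.

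Germ cell regulators had a median score of 48.8 over 8 genes, of which 5 (62.5%) held a peak, against 43.7% of protein-coding symbols. Their median length was 62.1 kb, and 46.6% of protein-coding symbols between 25 and 75 kb held one. TEX15, which acts in meiosis and in retrotransposon silencing in the testis, scored 103 (101 to 106) with no peak in its body. DPPA4 and DPPA2, related nuclear proteins of pluripotent and germ cells, lie beside each other on chromosome 3. DPPA4 scored 66.9 (62.3 to 71.8) with 1 peak, over its start, while DPPA2 scored 45.5 (42.8 to 48.4) with its nearest peak 7564 bp into the gene. DAZL, an RNA-binding protein of germ cells, scored 58.5 (56.9 to 60.2) with 10 peaks over 9.7% of its body, the nearest to the start of the interval 6913 bp into it. STK31, a Tudor domain kinase-like protein of the testis, scored 52 (50.7 to 53.3), and peaks covered 45% of the 10 kb before its start. BRDT, the testis bromodomain protein, scored 41 (39.4 to 42.6), and DMRTB1, a transcription factor of spermatogonia, 39.6 (35.3 to 44.1), both without a peak in the body. TEX14, needed for the bridges between dividing germ cells, scored 36.4 (35.4 to 37.4).

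All 4 sperm genes held peaks (43.7% of protein-coding symbols do) and lay above the median of all symbols (37.5% do). Their lengths ran from 7.14 to 271 kb. TEX101, a surface protein of male germ cells, was the highest of the 36 at 130 (124 to 137), and 76.5% of its 12.107 kb at chr19:43910657-43922763 lay in 4 peaks. ACR, which encodes the acrosomal protease acrosin, scored 64.9 (59.1 to 71), and SLC25A31, the testis form of the mitochondrial ADP/ATP carrier, 57.2 (55 to 59.5), with 7 peaks over 13.7% of its body. ZPBP, an acrosomal protein that binds the coat of the egg, scored 48.7 (47.8 to 49.5) over the longest interval of the list, 271 kb, which overlaps C7orf72 and VWC2.

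PIWIL2 and TEX15 lie on chromosome 8, and their scores have to be read against it. The median over chromosome 8 intervals was 85.9 reads per kb, while the medians of the other chromosomes that carry members ran from 25.4 to 44.3. TEX15 was 1.2 times and PIWIL2 1.4 times the chromosome 8 median. Among 60 protein-coding genes of chromosome 8 that are 50 to 70 kb long, the median score was 73.2, and 34 held a peak. That range of lengths holds TEX15 (59.063 kb) but not PIWIL2 (82.267 kb). The score is not corrected for copy number, and the part of the chromosome in the scores of PIWIL2 and TEX15 was not tested further. Divided by its own chromosome's median, the score of the typical member was 1.41. Put back on the scale of the score, the members' median was 53.9 and that of protein-coding symbols 35. Without both genes the list's median was 51.4. PIWIL2 held the widest peak found in any member, 7350 bp, and peaks of 900 and 1350 bp followed it without a gap. Peaks that abut, here and in other members, were counted as separate peaks.

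Start sites were marked in 9 of the 36 genes. A peak lay within 1 kb of the start of MAEL, TDRD5, TDRD6, TDRD9, RNF17, SPO11, DPPA4, TEX101 and SYCE1, which is 25% of the list, against 12.4% of protein-coding symbols and 14.2% of all nuclear symbols. The start itself lay inside a peak in 8 of them (22.2%, against 7.42%), the exception being SYCE1. Within 5 kb the count was 13 (36.1%, against 26.4%). By length, 5 of the 11 genes under 25 kb had such a peak (12.5% of protein-coding symbols of that length), 1 of 12 between 25 and 75 kb (10.9%) and 3 of 13 at 75 kb or more (14.1%), so most of the difference lay in short genes. By role, 5 of the 9 belong to the PIWI and piRNA pathway, and 5 of its 13 genes (38.5%) had a peak there. The 9 genes had a median score of 63.7 and a median length of 16.4 kb, and the other 27 had 46.5 and 65.1 kb. Reads of a start peak inside the body count toward the score, more so in a short gene, so these medians are not independent of the peak.

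**Figure D3:**
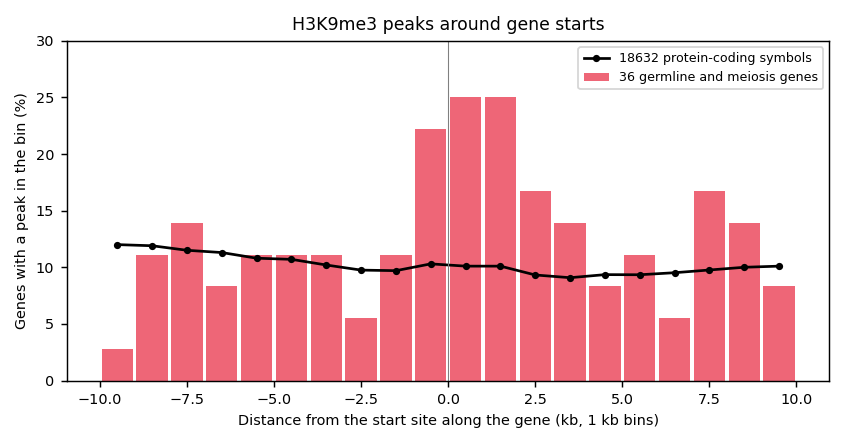
Share of genes with an H3K9me3 peak (vertical axis, percent) in 1 kb bins by distance from the start site, for the 36 genes (bars) and 18632 protein-coding symbols (line). The bars reach 25% in the bins from 0 to 2 kb after the start and 22.2% in the kb before it, where the line stays near 10%.

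Peaks were most frequent in the 2 kb after the start and the kb before it. In the kb before the start 22.2% of the genes had a peak and in each of the next 2 bins 25%, against 10.1% to 10.3% of protein-coding symbols. In the other bins within 10 kb, the share ran from 2.78% to 16.7%, and that of protein-coding symbols from 9.08% to 12%. Along the body, peaks covered 15.4% of the first 10% of the gene on average (protein-coding 6.35%). The other steps of 10% ran from 4.05% to 10.3%, the highest being the seventh, against 6.45% to 6.87% over protein-coding symbols.

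The 11 peaks at these starts had a median width of 1500 bp, against 900 bp over all peaks. A wide peak is more likely to reach the window around a start, and start peaks of other genes were not compared. The difference in width is therefore no trait of germline starts. Positions are given relative to the start site, with negative values upstream. At SPO11 the peak at chr20:55904101-55905600 ran from -714 to 785 bp, at RNF17 the peak at chr13:25337701-25338900 from -589 to 610 bp, and at TDRD5 the peak at chr1:179559751-179562300 from -997 to 1552 bp. All 3 lie across the start, that of TDRD5 reaching farther into the gene than upstream. DPPA4 had its only peak at chr3:109054951-109056600, from -181 to 1468 bp, mostly inside the gene. TDRD9 showed the reverse, with a peak at chr14:104393401-104394900 from -1398 to 101 bp, which also holds the start of C14orf2, a neighbour on the opposite strand with a score of 30.2. MAEL had a peak at chr1:166958101-166959450 from -245 to 1104 bp and a smaller one just upstream, and peaks covered 32.5% of the 10 kb before its start. TDRD6 also had 2, at chr6:46654501-46656150 from -1111 to 538 bp and a 450 bp peak just after it.

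TEX101 and SYCE1 carried the widest start peaks. At TEX101 the peak at chr19:43910101-43913400 was 3300 bp wide and ran from -556 to 2743 bp. It also holds the start of AC018758.1, an overlapping interval of the same strand with a score of 280. At SYCE1 the peak of 4350 bp at chr10:135377851-135382200 began 676 bp after the start. The starts of these 2 intervals, and those of DAZL, DDX4 and ZPBP, did not match a RefSeq start by their spacing to neighbouring genes, so they may not be the main start of the gene. Spacing put the RefSeq start of DAZL 64882 bp into its interval, inside a peak that ran from 64663 to 65562 bp. It put that of SYCE1 at 1077 bp and that of TEX101 at 8354 bp, both also inside a peak, while no peak lay within 1 kb of the starts placed in this way for DDX4 and ZPBP. With these 5 starts the count within 1 kb was 10 of 36. Of the 26 members whose start did match, 7 (26.9%) had a peak within 1 kb. Just outside the 1 kb limit were PIWIL2, with a peak 1041 bp after the start, MOV10L1, 1408 bp before it, and PIWIL1, 1569 bp after it.

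The promoter sequences of members with and without a start peak are shown side by side because E2F6 and the MGA and MAX pair bind at germline gene starts, the former at E2F sites and the latter at E-boxes. The sequences are from RefSeq on GRCh38.p14, from 250 bp before to 50 bp after the start, 5′ to 3′ on the strand of the gene. Capitals mark CACGTG, an E-box, and TCCCGC or its reverse complement GCGGGA, the core of an E2F site, searched on both strands. MAEL (chr1:166989030-166989329, plus strand), SPO11 (chr20:57329553-57329852, plus), TDRD9 (chr14:103928206-103928505, plus) and DPPA4 (chr3:109337497-109337796, minus) had a peak at the start, and they cover the range from rich to poor in CpG.
MAEL: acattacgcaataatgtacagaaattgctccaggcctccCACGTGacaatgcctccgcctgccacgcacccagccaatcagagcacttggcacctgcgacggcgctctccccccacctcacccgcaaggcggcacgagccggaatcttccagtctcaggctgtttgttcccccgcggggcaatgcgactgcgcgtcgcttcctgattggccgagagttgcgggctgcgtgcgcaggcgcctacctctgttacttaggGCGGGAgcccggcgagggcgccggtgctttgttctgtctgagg
SPO11: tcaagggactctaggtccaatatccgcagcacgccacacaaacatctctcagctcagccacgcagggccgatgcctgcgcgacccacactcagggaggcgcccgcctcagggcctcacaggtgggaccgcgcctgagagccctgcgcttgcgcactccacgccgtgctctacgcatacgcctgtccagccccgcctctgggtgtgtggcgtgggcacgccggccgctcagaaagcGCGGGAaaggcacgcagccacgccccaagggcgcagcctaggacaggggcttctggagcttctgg
TDRD9: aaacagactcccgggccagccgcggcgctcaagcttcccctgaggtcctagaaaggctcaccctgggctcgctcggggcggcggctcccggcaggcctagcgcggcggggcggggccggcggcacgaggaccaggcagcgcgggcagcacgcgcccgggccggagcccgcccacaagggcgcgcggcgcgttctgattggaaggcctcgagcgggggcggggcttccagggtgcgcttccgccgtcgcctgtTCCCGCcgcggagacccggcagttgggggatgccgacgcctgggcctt
DPPA4: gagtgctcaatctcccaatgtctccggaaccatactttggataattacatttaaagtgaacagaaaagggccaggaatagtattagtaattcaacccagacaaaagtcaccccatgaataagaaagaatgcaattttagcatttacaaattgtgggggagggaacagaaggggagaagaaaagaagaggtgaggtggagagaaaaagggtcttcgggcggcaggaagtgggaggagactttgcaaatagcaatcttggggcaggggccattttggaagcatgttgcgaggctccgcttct
SLC25A31 (chr4:127730150-127730449, plus), SMC1B (chr22:45413550-45413849, minus) and STK31 (chr7:23709969-23710268, plus) had peaks in the body or upstream but none within 1 kb of the start, and they are among the members that hold a motif more than once.
SLC25A31: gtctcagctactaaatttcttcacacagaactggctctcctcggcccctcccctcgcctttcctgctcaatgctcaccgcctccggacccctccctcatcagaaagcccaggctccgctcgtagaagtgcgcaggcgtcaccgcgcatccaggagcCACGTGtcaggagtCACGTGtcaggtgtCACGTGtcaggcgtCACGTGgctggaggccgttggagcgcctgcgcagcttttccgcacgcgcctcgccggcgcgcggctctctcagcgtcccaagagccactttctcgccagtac
SMC1B: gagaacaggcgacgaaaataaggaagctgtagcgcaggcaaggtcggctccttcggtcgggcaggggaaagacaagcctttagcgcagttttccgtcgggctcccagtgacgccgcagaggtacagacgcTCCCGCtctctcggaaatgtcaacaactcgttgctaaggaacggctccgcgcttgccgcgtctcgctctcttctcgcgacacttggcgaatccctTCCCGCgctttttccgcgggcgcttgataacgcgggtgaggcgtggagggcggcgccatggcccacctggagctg
STK31: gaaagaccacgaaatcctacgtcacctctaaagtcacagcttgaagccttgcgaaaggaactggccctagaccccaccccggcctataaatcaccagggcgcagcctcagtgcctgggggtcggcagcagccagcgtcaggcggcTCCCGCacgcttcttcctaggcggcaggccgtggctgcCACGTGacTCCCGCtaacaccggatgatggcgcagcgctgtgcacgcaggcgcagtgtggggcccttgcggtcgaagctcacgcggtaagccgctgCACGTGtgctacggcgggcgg

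These sequences were picked to span CpG content or to hold repeated motifs, so how much they differ is set by that choice. TDRD9 holds 41 CpG and DPPA4 only 5 in the same 300 bp, a ratio of observed to expected CpG of 0.941 and 0.355, and both starts lie in a peak. SLC25A31 holds 4 E-boxes within a short repeat, SMC1B holds 2 E2F cores and the highest CpG ratio, 1.17, and STK31 holds 2 of each motif, and none of these 3 had a peak within 1 kb. MAEL holds 1 of each, and SPO11 and TDRD9 hold 1 E2F core.

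Over the 26 promoters whose start matched, the median GC share was 63% and the median CpG ratio 0.806, and 20 (76.9%) had a ratio over 0.6. An E-box was found in 6 (23.1%) and an E2F core in 14 (53.8%). Among all 35114 promoters of that table the shares were 48.8% with a ratio over 0.6, 7.26% with an E-box and 26.9% with an E2F core. Among its 22197 promoters of protein-coding genes they were 62.1%, 8.34% and 33.5%. Of the 7 promoters with a start peak, 5 had a ratio over 0.6, 1 an E-box and 3 an E2F core. Of the 19 without one, the counts were 15, 5 and 11. With 7 and 19 promoters these counts are too small to rank the 2 sets, and no test was made. A match to these letters is not a bound site, and neither DNA methylation nor factor binding was measured in the data used here.

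Most of the genes scored above the genes around them. Each was set beside the 5 nearest protein-coding symbols on each side (ACR and SYCE1, close to a chromosome end, had 6 in all). The score was above the neighbours' median in 28 of 36, against 49.2% of protein-coding symbols treated alike, with a median ratio of 1.62 (protein-coding 0.991). Neither the neighbours nor this background was matched for length. The members' median length was 62 kb against 27 kb over protein-coding symbols. The median score of protein-coding symbols rose with length, from 28 under 25 kb to 42.1 at 75 kb or more. In 8 genes the score was at least 2 times the neighbours' median (11.8% of protein-coding symbols). TEX101 stood out most, at 4.19 times the neighbours' median of 31.1, and its 10 neighbours, from 17.5 to 43.6, had no peak in their bodies. SYCE1 followed at 3.53 times, ACR at 2.96, PIWIL2 at 2.73, MOV10L1 at 2.62, TDRD5 at 2.61, HORMAD2 at 2.49 and RNF17 at 2.12.

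TEX101, SYCE1, HORMAD2, SLC25A31 and TEX15 scored above every one of their neighbours, and no member scored below all of them. At the other end SYCP3 was at 0.614 of its neighbours' median, PIWIL4 at 0.772 and ASZ1 at 0.813. SPO11 was at 0.852, in a stretch where 5 of 10 neighbours also had a peak at the start. Over all members, 55 of 352 neighbours (15.6%) had a peak within 1 kb of their start.

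**Figure D4:**
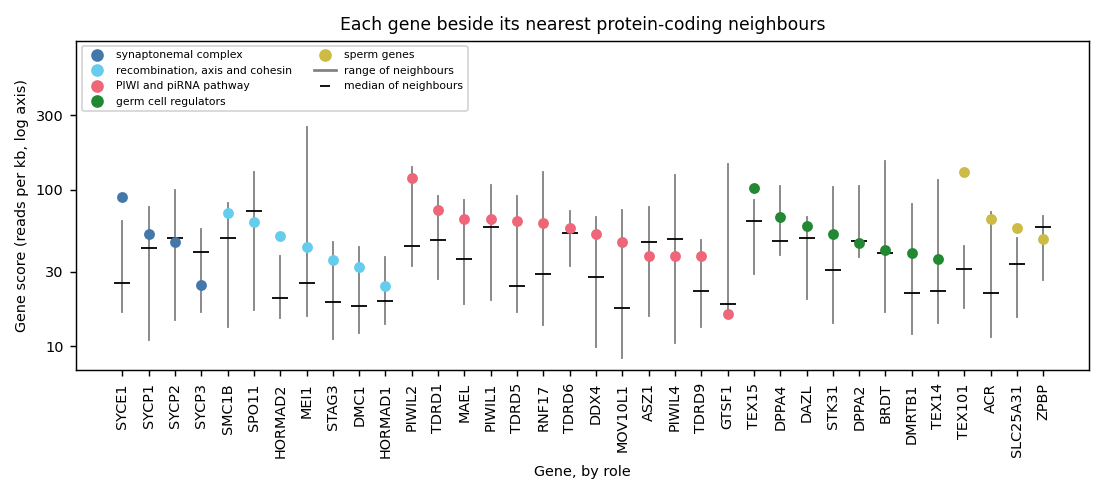
Gene score of each of the 36 genes (coloured points, reads per kb, log axis) beside the range (grey line) and median (black dash) of its nearest protein-coding neighbours. TEX101, SYCE1, HORMAD2, SLC25A31 and TEX15 lie above the top of their grey line.

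Many germline genes have a related gene that works in all cells, which gives a comparison within a family. Over 26 such pairs, made of 14 members and 14 relatives, the member scored higher in 24, with a median ratio of 1.88. The pairs share members and relatives and are not independent. The relatives had a median of 22.4 (16 to 41.7), below the protein-coding median of 34.3. Of the 14, 4 held a peak in the body (43.7% of protein-coding symbols). None had one within 1 kb of the start, where 12.4% of protein-coding symbols have one, so that 0 of 14 says little. The members in the pairs had a median of 57.2, and 13 of 14 held a peak. The gap between members and relatives thus holds relatives below the protein-coding median as well as members above it. Pairs were not matched for length, which differs within them, and long genes hold peaks more often.

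Cohesin genes gave both a wide and a narrow gap. SMC1B at 71.3 was 4.44 times its relative SMC1A at 16 (14.9 to 17.2), which is X-linked, while STAG3 at 35.7 was close to STAG1 at 33.5 and STAG2 at 35.5. Both relatives held more peaks than STAG3, with 7 over 3.64% of STAG1 and 11 over 3.54% of STAG2 against 1 over 1.02%. DDX4 was 2.41 times DDX3X at 21.8, and MOV10L1 was 2.51 times MOV10 at 18.3. BRDT at 41 exceeded BRD2 at 18.9 and BRD3 at 33.6. SLC25A31 at 57.2 exceeded SLC25A4 at 37.1 and SLC25A5 at 17.5, while SLC25A6 held 0 reads and was left out. In peaks the order of BRDT and BRD3 was the other way, with none in BRDT and 3 over 7.98% of the body of BRD3.

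PIWI proteins were set beside the AGO proteins of the microRNA pathway, listed under their older names. EIF2C1 scored 21.5, EIF2C3 23 and EIF2C4 19, all below PIWIL1, PIWIL2 and PIWIL4. EIF2C2, on chromosome 8, scored 39.8, above PIWIL4 at 37.7, a ratio of 0.946 that became 2.27 when each score was divided by its chromosome's median. TDRD3, a Tudor protein of somatic cells, scored 41.7, with 4 peaks over 2.28% of its body. TDRD1, TDRD5, TDRD6 and RNF17 exceeded it and TDRD9 at 37.6 did not. With scores divided by the chromosome median the member was higher in 25 of 26 pairs, the exception being STAG3 against STAG2.

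**Figure D5:**
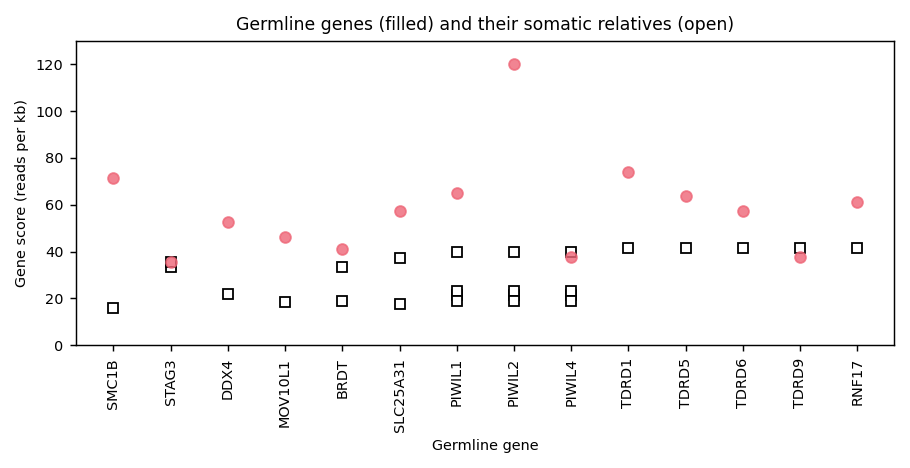
Gene score (reads per kb) of the 14 members with a somatic relative (filled points) and of their relatives (open squares), SLC25A6 left out. The filled point is higher in 24 of 26 pairs, and PIWIL4 and TDRD9 each lie below 1 relative.

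Other genes of the same pathways scored in a like range. Of 63 further names of meiosis, the piRNA pathway, oocytes and sperm, 57 were matched, and their median score was 50.3. A peak lay in the body of 32 (56.1%) and within 1 kb of the start of 17 (29.8%), against 43.7% and 12.4% of protein-coding symbols. The median length of the 57 genes was 20.5 kb, and among protein-coding symbols under 25 kb the shares were 21.9% and 12.5%. The highest were TNP1, a transition protein of sperm chromatin, at 158 (128 to 193) with no peak, and DPPA5, a pluripotency gene, at 131 (112 to 153) with its whole body in a peak. ZP2, an egg coat protein, scored 121 (116 to 127), RNF212, a recombination factor, 117 (114 to 120), and ACRBP, which binds proacrosin, 117 (110 to 124). The lowest were NANOS3, a germ cell RNA-binding protein, at 14.1 (10.5 to 18.5), CALR3, a testis chaperone whose interval runs over 149 kb, at 16.2 (15.6 to 16.9), and MSH5, a meiotic recombination factor, at 16.5 (15 to 18.2). REC8, the meiotic kleisin of cohesin, scored 22, below its relative RAD21 at 25.4, while RAD21L1 scored 84.1. RAD21 had 1 peak within 1 kb of its start and 0 in its body. Neither REC8 nor RAD21L1 had one at the start, and RAD21L1 held 12 in its body. RAD21 lies on chromosome 8, and with scores divided by the chromosome median REC8 was 2.16 times RAD21.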

How the data were processed

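The H3K9me3 library was analysed. The submitters' processing notes name Bowtie2, MACS and hg19, without versions or roles, and whether IgG served in peak calling is not stated. The authors deposited a count of reads per gene interval, and a gene score, a signal in reads per kb, which equals the count divided by the length (largest difference 3.03e-06). The score is not scaled to depth or corrected for IgG, copy number or mappability, so it compares genes within this library only. The deposited peaks lie on a 150 bp grid (0 off it) and have no height or significance.

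The highest-scoring interval of each symbol was used (280 symbols had several, no member did). Gene types came from a RefSeq table on GRCh38.p14, which typed 22087 symbols. The start site was the end of the interval at which the strand begins. A promoter was matched when its spacing to neighbours within 2 Mb differed from that of the interval by at most 1 kb. No coordinates were converted between builds. Chromosome medians used intervals of 1 kb or more.

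The members and lists were chosen with earlier results of these data known. By rule the text names all 36 members, their relatives and the other fixed pairs, the 5 highest and 3 lowest genes of the wider list, and genes that share a start peak. Genes that overlap a member were added after values were seen. The comparisons with 2 further relatives are not reported here. No p-value was computed. Alternatives changed the interval, members, peak width, window and scaling. The functions for cover and start peaks were tested on simulated data (200 genes, 0 disagreements). The tools were scipy 1.17.1, pandas 2.3.3, numpy 2.4.6 and matplotlib 3.10.9 under Python 3.11.15.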

Additional observations from a re-analysis of the deposited data

How the results depend on the processing

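Of 27 alternatives, 25 left the value close to the one reported, but some of them could not have moved it. Taking the longest interval could not change the members' own values, because no member had several intervals. Leaving out chromosome 8 could not lower the count of start peaks, because neither PIWIL2 nor TEX15 had one. Close meant within 42.9 to 62.4 for the median score, the scores of MEI1 and SPO11, a spread over members and not over replicates. The median score was 52.3, and its alternatives ran from 51.4 to 57.9. For the rest, close meant within 1.5 times, counted as shares where genes were left out. The other 2 moved. When a gene counted as marked only with 10% or more of its body in peaks, 9 of 36 were marked in place of 28, and the median cover was 3.77% where the mean was 8.06%. Among the 20 members that overlap no other interval, 15 (75%) held a peak in the body and 4 (20%) had one within 1 kb of the start. Over all protein-coding symbols, overlapping or not, the shares were 43.7% and 12.4%. With only peaks of the median width or wider, 25 held a peak in the body (protein-coding symbols 38.7%) and 9 had one at the start (10.6%). Leaving out TEX101, counting only members whose start matched RefSeq, and moving the other starts to RefSeq (10 with a start peak) were chosen after seeing the data. No paired analysis was possible because there is 1 library. Counting error is small beside the differences between genes, but the spread between replicates is not known.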
